A study of Mus musculus with 24 samples.

Results

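Hepatokines are proteins that hepatocytes release into the blood and that act on other organs. Several of them are hormones of nutrient stress, made when the transcription factor ATF4 of the integrated stress response or the fasting receptor PPAR alpha is active, while others rise with insulin after a meal or circulate as abundant plasma glycoproteins. In fatty liver their blood levels are known to change, which is why they are studied as links between liver fat and the metabolism of muscle, adipose tissue and brain. The transcripts of 9 hepatokine genes were picked by gene symbol from the 55421 genes in the count table: the stress hormones Fgf21, Gdf15 and Inhbe, the fetuins Ahsg and Fetub, the angiopoietin-like proteins Angptl6 and Angptl8, the peptide gene Enho and the proteoglycan gene Tsku. All 9 were found, and all 9 were among the 13847 genes that passed the low-count filter.

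The RNA came from hepatocytes of 24 male C57BL/6J mice, isolated from the liver by collagenase perfusion, washed and purified on a Percoll gradient, with 1 library per animal. In ND+veh, 8 mice ate a normal diet with vehicle throughout. In HFD+veh, 7 mice had received normal diet with vehicle from 4 months of age and then, from 18 months, a diet with 60% of its calories from fat, again with vehicle, for 9 weeks. In HFD+eRapa, 9 mice had received encapsulated rapamycin (eRapa, 42 ppm in the food) from 4 months of age and kept it during the same 9 weeks of high-fat diet from 18 months. Rapamycin inhibits the kinase complex mTORC1. The groups analysed here include no animals on normal diet with eRapa, and eRapa began long before the high-fat diet, so an action of eRapa on the response to the diet cannot be told apart from its action without the diet. All libraries carry the same batch label.

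Libraries held 17.7 to 25.9 M counts (M, units of 1000000), and all 12 hepatocyte markers were detected in each group, with summed medians of 158648, 147285 and 132821 counts per M counts (CPM) in ND+veh, HFD+veh and HFD+eRapa. Alb alone had means of 94289 CPM in ND+veh and 102245 in HFD+veh, against mean sums of 153764 and 151982. Scaling to these markers, used below as an alternative, thus rests mostly on Alb in those groups. Of the 12, edgeR called Cyp2e1 and Apoa1 lower in HFD+veh against ND+veh (log2 fold changes -1.93 and -0.68). Both were called higher in HFD+eRapa against HFD+veh (2.04 and 0.71), and 0 of the 12 were called between HFD+eRapa and ND+veh. Markers of other liver cells moved with the groups. The summed CPM of 12 macrophage markers had a median of 297 in ND+veh (52.4 to 1569), 2960 in HFD+veh (198 to 5886) and 236 in HFD+eRapa (19.4 to 1230), and none of these markers was at 0 in all libraries of a group. Between HFD+eRapa and HFD+veh, 10 of 12 macrophage, 8 of 9 endothelial and 9 of 10 stellate cell markers were called lower by edgeR. In HFD+veh against ND+veh, 4, 1 and 3 of them were called higher. Without HFD+veh replicate 6 these counts were 6, 3 and 9 lower and 0, 0 and 1 higher. In such bulk RNA, fewer cells of a type and less RNA per cell cannot be told apart.

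The control region of a hepatokine gene is shown here because a motif bound by ATF4 together with C/EBP proteins was looked for next to the start sites. RefSeq start sites on GRCm38.p6 were found for 8 of the 9 genes, with 11 windows of the 250 bases before a start. Enho had no entry. The core TGATGNAA, read on both strands, occurred in 3 of the 11 windows, those of Fgf21, Inhbe and Angptl8, while 3.45% of 32851 mouse windows of the same length hold it. The 30 bases around each match are given on the strand of the gene, with the 8 bases of the core in capitals.
Fgf21 (chr7:45615611-45615640, minus strand, core at -139 to -132): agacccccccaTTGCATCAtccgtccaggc
Inhbe (chr10:127352011-127352040, minus strand, core at -181 to -174): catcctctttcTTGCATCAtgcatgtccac
Angptl8 (chr9:21835369-21835398, plus strand, core at -130 to -123): agccatcagtcTGATGCAAtggctgagcct
Fgf21 and Inhbe held the same 8 bases, and Angptl8 held their reverse complement. The Inhbe match lies inside the gene model of Gencode M21, which starts upstream of the RefSeq start.

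Besides ATF4, the E-box CACGTG, the site of ChREBP, SREBP and clock factors, was searched for, and it occurred in Fgf21 and in the window of the alternative Gdf15 start (6.02% of all windows). Fgf21 was the only member with the stress core and the E-box in 1 window, and its 250 bases before the start are printed with both in capitals, as is the window of Angptl8 with its core.
Fgf21 (chr7:45615491-45615740, minus strand): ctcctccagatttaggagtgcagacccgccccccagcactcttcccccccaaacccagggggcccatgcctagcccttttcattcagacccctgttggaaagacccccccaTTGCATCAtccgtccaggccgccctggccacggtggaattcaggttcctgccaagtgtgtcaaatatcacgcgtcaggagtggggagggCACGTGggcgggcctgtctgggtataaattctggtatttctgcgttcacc
Angptl8 (chr9:21835260-21835509, plus strand): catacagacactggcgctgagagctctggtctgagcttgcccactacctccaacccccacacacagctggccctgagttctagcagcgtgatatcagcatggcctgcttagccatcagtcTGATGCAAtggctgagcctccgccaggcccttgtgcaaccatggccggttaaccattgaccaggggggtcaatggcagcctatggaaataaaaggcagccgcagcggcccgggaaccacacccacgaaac
The nuclear receptor motif AGGTCA (14.0% of all windows) occurred in the window of the upstream Gdf15 start, and the CCAAT box (33.8%) in Inhbe, in the alternative Gdf15 window and in 1 of the Fetub windows. The 4 motifs did not overlap each other in these windows. As the values below show, the 3 genes with the stress core did not move alike, and the part of the core in these values was not tested.

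Per length of transcript, Ahsg stood far above the other members. Its mean was 4282 FPKM (fragments per kilobase and per M mapped fragments) in ND+veh, 3186 in HFD+veh and 3760 in HFD+eRapa, rank 36 of 13847 tested genes over all 24 libraries. Fetub followed with means of 239, 142 and 256 FPKM, and the lowest Ahsg animal was above the highest Fetub animal in each group. Angptl8 came next in each group (207, 90.9 and 51.5 FPKM), and only in HFD+eRapa were its animals all below those of Fetub. Below it the order depended on the group: Fgf21 stood at place 4 in ND+veh with 55.4 FPKM, at place 7 in HFD+veh with 9.71 and at place 8 in HFD+eRapa with 10.2. Inhbe was at place 8 in ND+veh with 10.9 FPKM and at place 5 in HFD+eRapa with 20.1. Angptl6 was lowest in all groups (6.00, 3.77 and 2.19 FPKM), and in HFD+eRapa its highest animal, at 3.18 FPKM, was below the lowest Fgf21 animal, at 5.94. Most neighbours in the middle of the order overlapped.

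**Figure D1:**
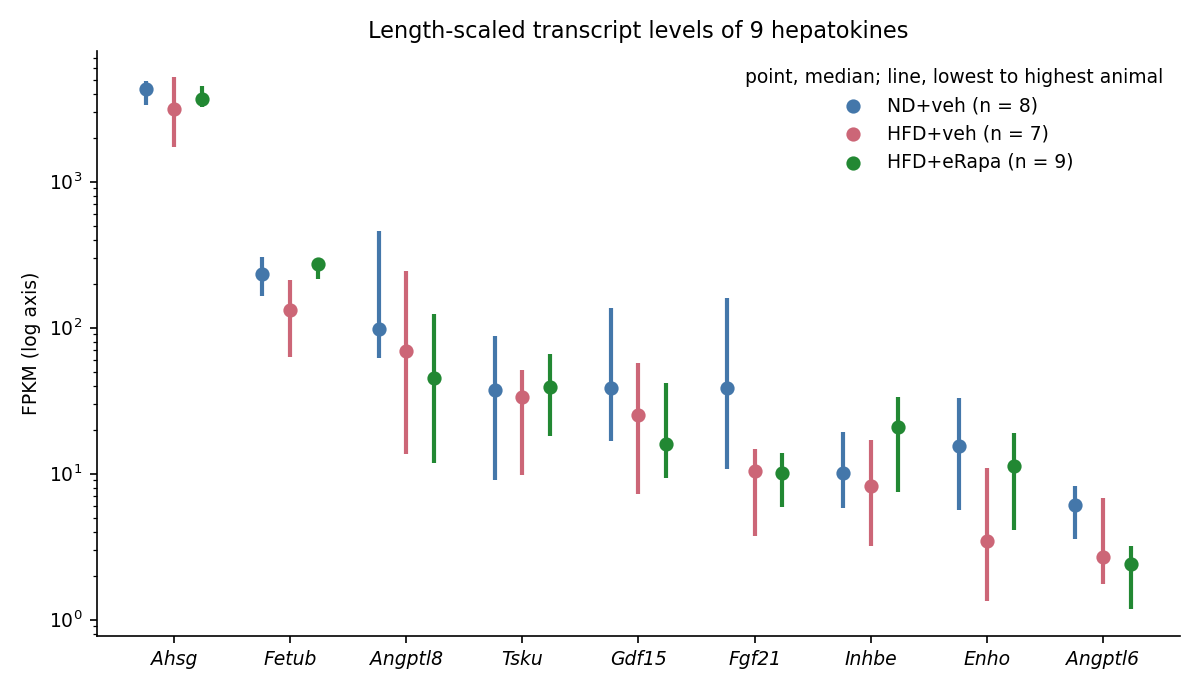
FPKM of the 9 transcripts (log axis) by group, with the median as a point and the line from the lowest to the highest animal (ND+veh n = 8, HFD+veh n = 7, HFD+eRapa n = 9). Ahsg lies above all others in each group, and Angptl6 has the lowest mean in each group.

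Fgf21 is the endocrine fibroblast growth factor of fasting and protein restriction, and it signals through FGF receptors with the co-receptor beta-Klotho. In ND+veh it ranged from 8.62 to 129 CPM with a median of 31.4, in HFD+veh from 2.83 to 12.1 with a median of 7.80, and in HFD+eRapa from 5.01 to 12.8 with a median of 8.97. The ND+veh animals were widely spread, and replicate 2 of that group, the lowest, lay within the range of both high-fat groups, while all 7 HFD+veh and all 9 HFD+eRapa animals lay below the ND+veh median. In HFD+veh Fgf21 fell (log2 fold change -2.50, 5.68-fold lower, SE 0.465, edgeR adjusted p = 0.000910) and was as low with eRapa, at -2.35 against ND+veh (5.08-fold lower, SE 0.422, adjusted p = 0.000514). HFD+eRapa and HFD+veh differed by 0.16, with a 95% interval of -0.70 to 1.02 (adjusted p = 0.805). The calls against ND+veh stood under all 14 other settings and without any single library.

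Gdf15, a stress cytokine of the TGF-beta superfamily that acts on a brainstem receptor to lower food intake, ranged from 25.5 to 164 CPM in ND+veh (median 51.0), from 9.28 to 71.9 in HFD+veh (median 37.2) and from 14.6 to 61.0 in HFD+eRapa (median 23.6). ND+veh replicate 4 held the highest value, and HFD+veh replicate 6 the lowest. The groups overlapped widely, and 6 of 9 HFD+eRapa animals lay below all ND+veh animals. Gdf15 was called lower in HFD+eRapa than in ND+veh (log2 fold change -1.14, SE 0.380, edgeR adjusted p = 0.0472), close to the threshold. It was kept in 4 of 14 other settings, and it was lost without any 1 of ND+veh replicates 3, 4, 6 or 8 or of HFD+eRapa replicates 1, 2, 3, 4, 6, 8 or 9, with adjusted p up to 0.141 (without ND+veh replicate 4, log2 fold change -0.81). Against ND+veh the HFD+veh value was -0.80 (adjusted p = 0.146), and against HFD+veh the HFD+eRapa value was -0.34 (adjusted p = 0.535).

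Inhbe encodes the inhibin beta E subunit, which forms activin E, a liver-made signal that restrains fat breakdown in adipose tissue. It was the 1 member called higher in HFD+eRapa against both other groups and lay there between 52.7 and 184 CPM (median 123), against 35.1 to 86.2 in ND+veh (median 59.6) and 17.7 to 99.7 in HFD+veh (median 51.4). In HFD+eRapa 8 of 9 animals were above all ND+veh animals and all 9 were above the HFD+veh median, replicate 2 being the exception in the first count. HFD+veh replicates 1 and 2, at 99.7 and 93.2 CPM, stood apart from the other 5, which lay between 17.7 and 52.3. Inhbe rose in HFD+eRapa by 1.08 on the log2 scale against HFD+veh (2.11-fold, SE 0.298, edgeR adjusted p = 0.00856) and by 1.01 against ND+veh (2.02-fold, SE 0.285, adjusted p = 0.0180), while HFD+veh differed from ND+veh by -0.06 (95% interval -0.66 to 0.53, adjusted p = 0.889). A covariate for the immune marker score moved the value against HFD+veh to 0.49 (adjusted p = 0.212). On log2(FPKM + 0.1) with limma, the value against ND+veh was 0.89 (adjusted p = 0.0779), and that call was kept in 9 of 14 other settings.

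Fetub and Ahsg are neighbours on chromosome 16, with 18884 bases between the gene models. Fetuin-B, the product of Fetub, is a protease inhibitor of the cystatin superfamily that has been linked to glucose intolerance in fatty liver, and it ranged from 240 to 459 CPM in ND+veh (median 329), from 83.8 to 332 in HFD+veh (median 186) and from 278 to 418 in HFD+eRapa (median 378). In HFD+veh 4 of 7 animals were below all ND+veh animals, and in HFD+eRapa 7 of 9 were above all HFD+veh animals. Fetub fell in HFD+veh (log2 fold change -0.72, 1.65-fold lower, SE 0.218, edgeR adjusted p = 0.0197), rose in HFD+eRapa against HFD+veh (0.89, 1.85-fold, SE 0.215, adjusted p = 0.00391) and in HFD+eRapa differed from ND+veh by 0.17 (95% interval -0.24 to 0.57, adjusted p = 0.669). The calls stood without any single library. A fit of only HFD+veh and ND+veh gave -0.74 with an adjusted p of 0.0633.

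Fetuin-A, the product of Ahsg, keeps calcium phosphate in solution in plasma and inhibits the insulin receptor. Ahsg ranged from 4455 to 6632 CPM in ND+veh (median 5876), from 2197 to 7951 in HFD+veh (median 4601) and from 4283 to 6868 in HFD+eRapa (median 5499). The HFD+veh group held both the lowest animal, replicate 6, and the highest, replicate 1. Ahsg passed no test, with log2 fold changes of -0.38 for HFD+veh against ND+veh (edgeR adjusted p = 0.147), 0.31 for HFD+eRapa against HFD+veh (adjusted p = 0.221) and -0.07 for HFD+eRapa against ND+veh (adjusted p = 0.860). Without HFD+veh replicate 1 the values against ND+veh and for HFD+eRapa were -0.59 (adjusted p = 0.0120) and 0.52 (adjusted p = 0.0161). It was also called in the first comparison with limma on log2(FPKM + 1) (-0.49, adjusted p = 0.0468) and between HFD+eRapa and HFD+veh when libraries were scaled to hepatocyte markers (0.65, adjusted p = 0.00740).

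Fetub was lower in the HFD+veh animals with higher immune markers. Replicates 3, 4, 5 and 6, whose summed CPM of macrophage, lymphocyte and neutrophil markers lay between 3104 and 6443, held Fetub at 130, 128, 186 and 83.8 CPM. Replicates 1, 2 and 7, with marker sums of 204, 207 and 1127, held it at 332, 241 and 286 CPM. When edgeR was given the immune marker score as a covariate, Fetub was at -0.45 for HFD+veh against ND+veh (adjusted p = 0.162) and at 0.58 between HFD+eRapa and HFD+veh (adjusted p = 0.0702). The part of these cells in the differences was not tested.

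Angptl6, an angiopoietin-related growth factor known to raise energy use in mice, was the lowest member by mean FPKM and lay at 5.22 to 13.4 CPM in ND+veh (median 8.50), 3.18 to 9.01 in HFD+veh (median 3.97) and 2.24 to 5.38 in HFD+eRapa (median 3.94). In HFD+eRapa 8 of 9 animals were below all ND+veh animals, and the highest, at 5.38 CPM, passed the lowest ND+veh animal alone. Angptl6 fell in HFD+eRapa against ND+veh by a log2 fold change of -1.24 (2.36-fold lower, SE 0.237, edgeR adjusted p = 0.000870), a call that stood under all 14 other settings and without any single library. It also fell in HFD+veh against ND+veh (-0.76, 1.69-fold lower, SE 0.253, adjusted p = 0.0313), but the call was lost in 7 of 14 other settings and without any 1 of ND+veh replicates 6 or 7 or of HFD+veh replicates 1, 6 or 7 (adjusted p 0.0527 to 0.0669). HFD+eRapa and HFD+veh differed by -0.48 (95% interval -0.97 to 0.01, adjusted p = 0.134). Of the exonic bases of Angptl6, 16.8% are shared with A230050P20Rik on the opposite strand, and whether the counting used strand is not given in the sources used here.

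Stellate cell markers and Angptl6 were both low in HFD+eRapa. Against ND+veh, Angptl6 was called lower in HFD+veh, and 3 of 10 stellate cell markers were called higher and 0 lower. The summed CPM of 10 stellate cell markers had medians of 74.0 in ND+veh (20.8 to 148), 102 in HFD+veh (25.4 to 405) and 29.9 in HFD+eRapa (15.7 to 64.1), and HFD+eRapa had 5 of the 10 called lower against ND+veh, among them Reln (log2 fold change -1.77, edgeR adjusted p = 0.00270). None of the 10 was at 0 in all libraries of a group. In HFD+veh replicates 1, 2 and 7, with stellate sums of 25.4, 39.2 and 63.4 CPM, Angptl6 was at 3.18, 3.70 and 3.97 CPM. Replicates 5, 3 and 4, with sums of 102, 277 and 405, held it at 6.48, 7.89 and 9.01 CPM. Replicate 6, with a sum of 272, held it at 3.54 CPM. The 3 genes whose log2 CPM was most like that of Angptl6 over the 24 libraries were Hand2 (Pearson r = 0.920), Ecm1 (r = 0.873) and Cygb (r = 0.873), and Hand2 and Cygb are known from stellate cells. After group means were removed, r was 0.839, 0.790 and 0.829. The part of stellate cells in the Angptl6 values was not tested.

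**Figure D2:**
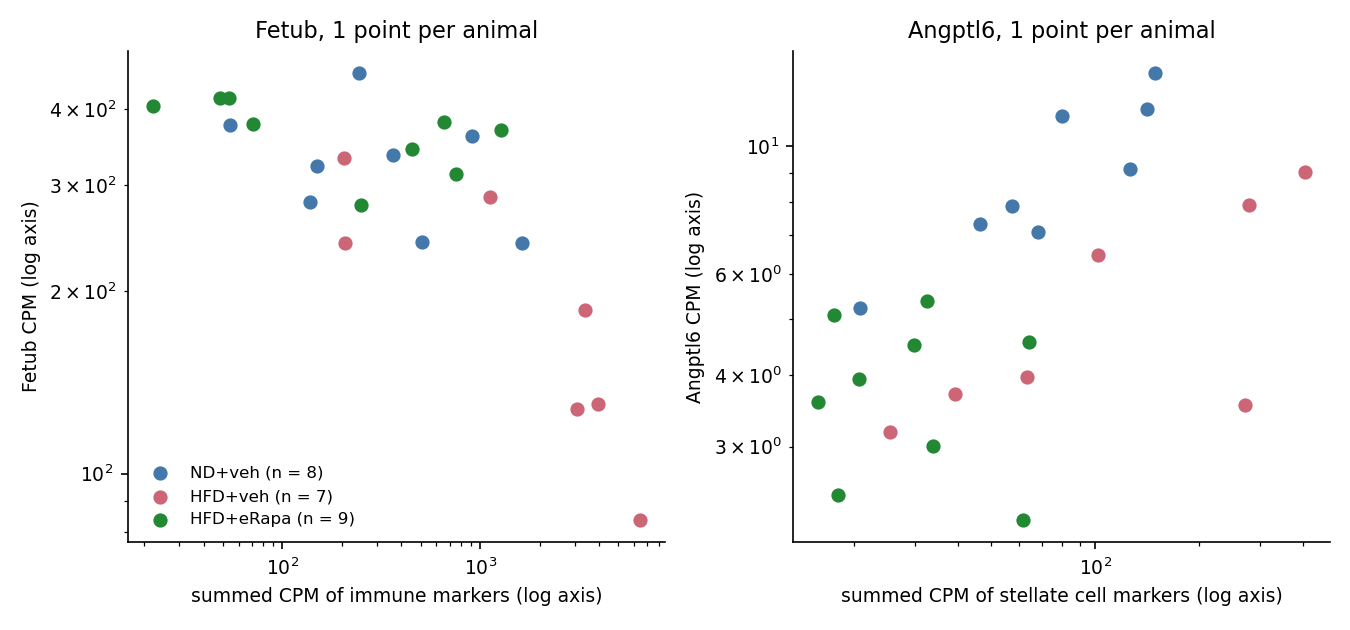
Left, Fetub CPM against the summed CPM of immune markers; right, Angptl6 CPM against the summed CPM of stellate cell markers, 1 point per animal and log axes throughout, coloured by group (ND+veh n = 8, HFD+veh n = 7, HFD+eRapa n = 9). The 4 HFD+veh animals with immune sums of at least 3104 hold the 4 lowest Fetub values, and in the right panel the HFD+eRapa animals all lie at or under 64.1 CPM of stellate cell markers and 5.38 CPM of Angptl6.

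Angptl8 is induced by insulin and feeding and takes part in blocking lipoprotein lipase in oxidative tissues. In ND+veh it fell into a high set, replicates 1, 2 and 3 at 323, 349 and 239 CPM, and 5 animals between 46.4 and 65.1. In HFD+veh it ranged from 9.49 to 204 CPM (median 52.6) and in HFD+eRapa from 9.26 to 112 (median 35.9), so that the groups overlapped. Angptl8 was called lower in HFD+eRapa than in ND+veh (log2 fold change -1.83, 3.55-fold lower, SE 0.578, edgeR adjusted p = 0.0366). The call was kept in 10 of 14 other settings and lost without any 1 of ND+veh replicates 1, 2 or 3 or of HFD+eRapa replicates 1, 2, 3, 4, 6, 8 or 9, with adjusted p of 0.0519 to 0.0865. Against ND+veh the HFD+veh value was -1.09 (adjusted p = 0.189). That value reached an adjusted p of 0.0498 without HFD+veh replicate 1, at -1.63, and turned to 0.28 (adjusted p = 0.801) once the immune marker score was a covariate. Between HFD+eRapa and HFD+veh Angptl8 differed by -0.74 (95% interval -1.91 to 0.44, adjusted p = 0.354), and by -2.10 (adjusted p = 0.0126) with that covariate. Angptl8 lies within Dock6, on the opposite strand.

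Enho encodes the precursor of adropin, a small peptide tied to the choice between glucose and fat as fuel. It ranged from 6.45 to 36.2 CPM in ND+veh (median 17.2), from 1.39 to 13.7 in HFD+veh (median 3.57) and from 4.44 to 25.8 in HFD+eRapa (median 13.8). In HFD+veh 5 of 7 animals were below all ND+veh animals and all 7 were below the ND+veh median, with replicate 1 the highest of the group. All 9 HFD+eRapa animals were above the HFD+veh median. In HFD+veh Enho fell (log2 fold change -1.73, 3.32-fold lower, SE 0.444, edgeR adjusted p = 0.00867), a call kept under all 14 other settings and without any single library, and rose in HFD+eRapa against HFD+veh by 1.41 (2.66-fold, SE 0.432, adjusted p = 0.0155). HFD+eRapa and ND+veh differed by -0.32 (95% interval -1.11 to 0.48, adjusted p = 0.677). Given the same covariate as for Fetub, the value for HFD+eRapa against HFD+veh was 1.11 (adjusted p = 0.126).

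Tsku, a secreted small leucine-rich proteoglycan linked to cholesterol handling and heat production, had medians of 85.7 CPM in ND+veh (24.8 to 204), 71.6 in HFD+veh (24.3 to 112) and 87.2 in HFD+eRapa (47.1 to 157). The 3 groups covered much the same range. Its log2 fold changes were -0.52 for HFD+veh against ND+veh (edgeR adjusted p = 0.364), 0.53 for HFD+eRapa against HFD+veh (adjusted p = 0.329) and 0.01 for HFD+eRapa against ND+veh (95% interval -0.75 to 0.78, adjusted p = 0.990). It was called in none of the 14 other settings or leave-one-out fits of any comparison.

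**Figure D3:**
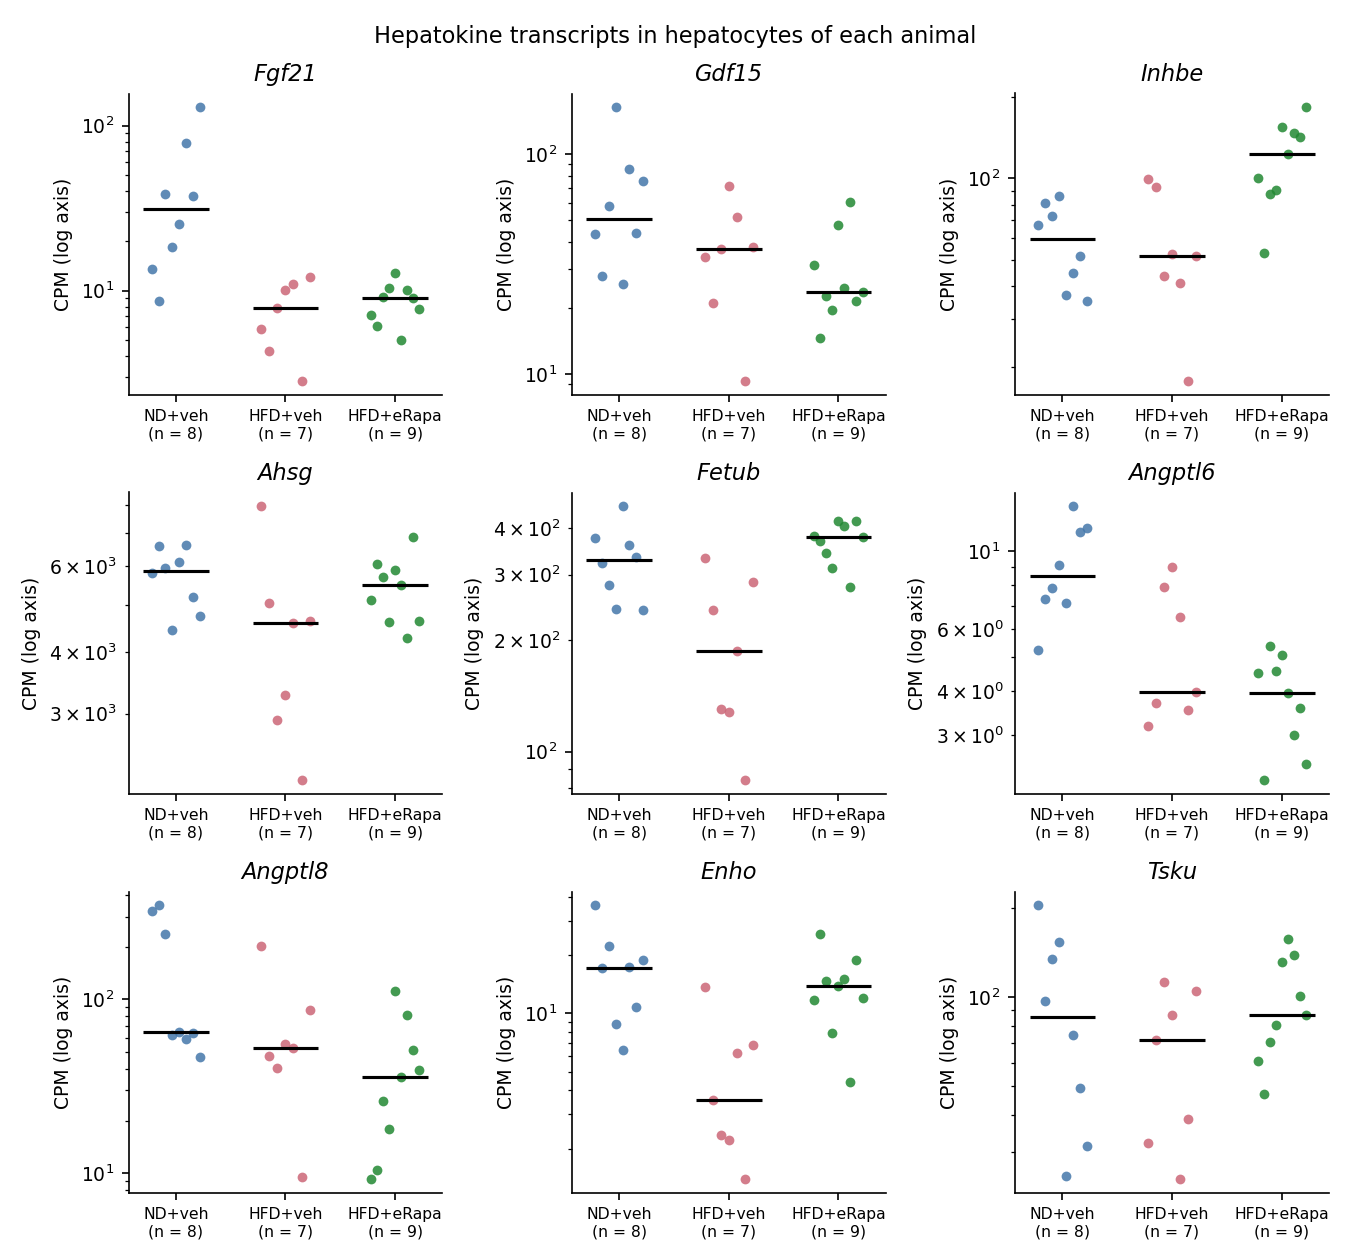
CPM (log axis) of each hepatokine transcript in each animal, with the group median as a black line (ND+veh n = 8, HFD+veh n = 7, HFD+eRapa n = 9). Fgf21 is low in both high-fat groups, Inhbe is high in HFD+eRapa, Fetub and Enho are low in HFD+veh, and no member's groups are free of overlap.

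The first comparison asked how the high-fat diet moved these transcripts. Against ND+veh, edgeR called 4 of the 9 lower in HFD+veh (Fgf21, Enho, Angptl6 and Fetub), 0 higher and 5 in neither direction, and an unadjusted p under 0.05 also marked 4. Of all genes tested, 25.9% were called, 16.0% higher and 9.86% lower. The median log2 fold change of the members was -0.76, and that of all genes tested was 0.05. In 0 of the 9 were the animals of both groups free of overlap, against 2.44% of all genes tested. A fit of only these 2 groups called 2 members, Fgf21 and Enho, and 2333 genes in all, against 3584 in the main fit.

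Comparing HFD+eRapa with HFD+veh asked how the transcripts differed with eRapa among animals that ate the high-fat diet. There, 3 of 9 members were called higher (Enho, Inhbe and Fetub) and 0 lower, where 32.0% of all genes tested were called, 10.9% higher and 21.1% lower. The median of the members was 0.31 and that of all genes tested -0.04, and 0 of 9 members were free of overlap against 2.59% of all genes tested. Once the immune marker score was a covariate, 0 of these 3 stayed called, and Angptl8 was called lower instead. Calls over all genes then went from 4432 to 986. Scaling the libraries to hepatocyte markers, an alternative chosen after seeing the data, turned the calls over all genes from 1507 higher and 2925 lower to 2588 and 1633, and under it Enho, Inhbe, Fetub and Ahsg were called higher. The HFD+veh animals enter this comparison and the first, so a member that was low in them is set to differ in opposite directions in both. Fetub and Enho had values of -0.72 and -1.73 in the first and 0.89 and 1.41 in the second, whereas Fgf21 had -2.50 and 0.16, Angptl6 -0.76 and -0.48, and Inhbe -0.06 and 1.08.

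Between HFD+eRapa and ND+veh, which differ in diet and in agent, 5 of 9 members were called: Inhbe higher, and Fgf21, Angptl8, Angptl6 and Gdf15 lower. Among all genes tested 13.5% were called, 6.93% higher and 6.54% lower, and 3.37% were free of overlap against 0 of the 9. The median of the members was -0.32, and that of all genes tested was -0.03. In 8 of the 17 fits that left out 1 library (ND+veh replicate 3 or HFD+eRapa replicate 1, 2, 3, 4, 6, 8 or 9), Gdf15 and Angptl8 both lost the call and 3 members were called.

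**Figure D4:**
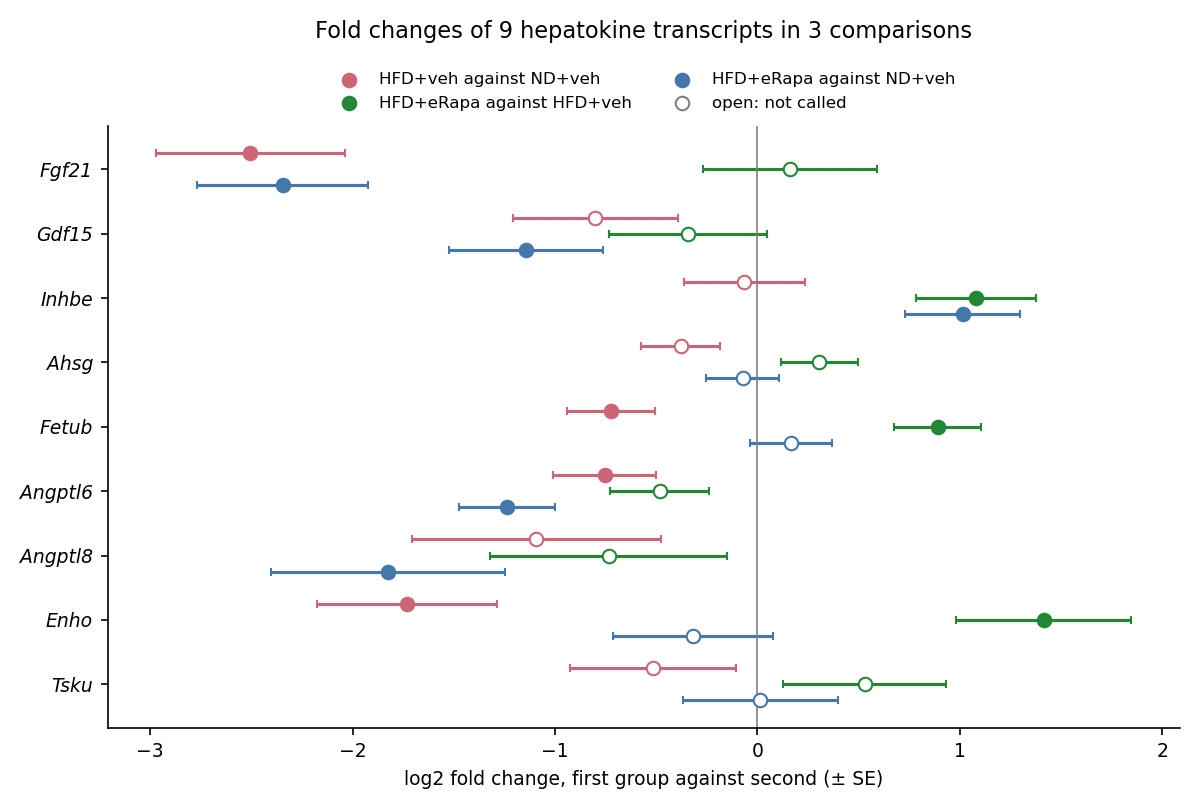
Log2 fold change of each hepatokine transcript with its SE in 3 comparisons (ND+veh n = 8, HFD+veh n = 7, HFD+eRapa n = 9), filled where edgeR called it and open where not. Fgf21 is at -2.50 and -2.35 in the comparisons with ND+veh and at 0.16 between the high-fat groups, while Fetub and Enho lie on opposite sides of 0 in the comparisons that involve HFD+veh.

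Genes of the pathways that are known to drive these hormones were read from lists. Of 19 tested genes of the integrated stress response, 1 was called higher and 6 lower in HFD+veh against ND+veh, 2 higher and 6 lower in HFD+eRapa against HFD+veh, and 0 higher and 10 lower in HFD+eRapa against ND+veh, with medians of -0.42, -0.37 and -0.85. Trib3, a pseudokinase induced by ATF4, fell in HFD+veh from 16.4 to 4.13 CPM (log2 fold change -1.99, edgeR adjusted p = 0.00423). Aldh1l2, a mitochondrial folate enzyme, was at low levels, with 1.74, 0.24 and 0.12 CPM in ND+veh, HFD+veh and HFD+eRapa. Its log2 fold changes against ND+veh were -2.82 in HFD+veh (edgeR adjusted p = 0.00101) and -3.73 in HFD+eRapa (adjusted p = 3.80e-05). Cth, which makes cysteine, rose in HFD+veh by 0.77 (adjusted p = 0.00468). In the same comparisons with ND+veh Fgf21 fell, Gdf15 had values of -0.80 and -1.14, and Inhbe had values of -0.06 and 1.01. The 6 genes called lower between HFD+eRapa and HFD+veh included Nupr1 and Slc7a11, both at low levels. Nupr1 had 0.41 against 1.70 CPM (-2.05, edgeR adjusted p = 0.0112), and Slc7a11 had 0.18 against 1.65 CPM (-3.14, adjusted p = 0.0430). For HFD+eRapa against HFD+veh the counts were 3 higher and 3 lower without HFD+veh replicate 6 and 1 higher and 1 lower with immune markers as a covariate. Scaled to hepatocyte markers, the counts for HFD+eRapa against ND+veh were 2 higher and 4 lower.

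PPAR alpha targets include many genes of fatty acid oxidation, and Fgf21 is known as one of them. Of 20 tested, 2 were called higher and 2 lower in HFD+veh against ND+veh, 15 higher and 2 lower in HFD+eRapa against HFD+veh, and 10 higher and 3 lower in HFD+eRapa against ND+veh (medians -0.18, 0.79 and 0.68). Vnn1, a pantetheinase, rose in HFD+eRapa against ND+veh by 1.57 (edgeR adjusted p = 4.68e-05), whereas Fgf21 fell by 2.35. Pdk4, which blocks pyruvate oxidation and is a fasting gene like Fgf21, fell by 1.99 in HFD+veh (adjusted p = 0.00338) and by 1.58 in HFD+eRapa against ND+veh (adjusted p = 0.00841). Ppara itself rose in HFD+eRapa against HFD+veh from 57.4 to 120 CPM (1.06, adjusted p = 0.00236).

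Lipogenic and carbohydrate response genes, many of which are induced by feeding as Angptl8 is, were called lower or not at all. Of 20 tested, 0 were called higher and 8 lower in HFD+veh against ND+veh, 0 and 2 in HFD+eRapa against HFD+veh, and 0 and 8 in HFD+eRapa against ND+veh (medians -0.59, 0.0020 and -0.53). Scaled to hepatocyte markers, the counts in HFD+eRapa against ND+veh were 1 higher and 4 lower. Scd1, the fatty acid desaturase, fell by 1.65 in HFD+veh (edgeR adjusted p = 0.000809) and by 1.90 in HFD+eRapa against ND+veh (adjusted p = 6.37e-05), and Pnpla3, a lipid droplet protein, fell with log2 fold changes of -2.92 (adjusted p = 0.00317) and -4.53 (adjusted p = 3.80e-05). Angptl8 had -1.09 and -1.83 in these comparisons, of which the second was called. Of 9 lipoprotein lipase inhibitors and their partners, 2 were called higher and 2 lower, 1 and 2, and 0 and 0 in the 3 comparisons, and 0 in either direction in the first without HFD+veh replicate 6. Angptl4, which like Angptl8 inhibits lipoprotein lipase, fell in HFD+veh by 1.00 (adjusted p = 0.0350) and rose in HFD+eRapa against HFD+veh by 1.06 (adjusted p = 0.0189). Lpl itself rose by 2.52 (adjusted p = 0.0388) and fell by 3.34 (adjusted p = 0.00613), in step with the macrophage markers given above, and the part of macrophages in its values was not tested.

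Among 12 tested receptors and co-receptors of these hormones, 3 were called higher and 1 lower in HFD+veh against ND+veh. The counts were 0 and 2 in HFD+eRapa against HFD+veh, and 1 and 1 in HFD+eRapa against ND+veh (medians -0.14, -0.18 and -0.22). Over all genes tested, 25.9%, 32.0% and 13.5% were called in these comparisons. Fgfr2 rose in HFD+veh from 16.9 to 35.3 CPM (1.06, edgeR adjusted p = 0.000186) and fell in HFD+eRapa to 8.54 CPM, below both vehicle groups (-2.05 against HFD+veh, adjusted p = 3.07e-08, and -0.99 against ND+veh, adjusted p = 0.000131). Fgfr1, which carries most FGF21 signalling in adipose tissue, had 1.03, 2.94 and 2.64 CPM in ND+veh, HFD+veh and HFD+eRapa and was called higher in both high-fat groups against ND+veh (adjusted p = 0.0170 and 0.0331). The GDF15 receptor gene Gfral had 0 counts in all 24 libraries. Acvr1c, whose product receives activin E in adipose tissue, did not pass the filter, with at most 2 counts in a library.

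Inhbc, the neighbour of Inhbe with 1910 bases between the gene models, encodes the inhibin beta C subunit and followed Fetub more than Inhbe. It had mean values of 84.2, 50.4 and 93.8 CPM in ND+veh, HFD+veh and HFD+eRapa, fell in HFD+veh (-0.74, edgeR adjusted p = 0.0157) and rose in HFD+eRapa against HFD+veh (0.90, adjusted p = 0.00314). Inhba, the beta A subunit, fell in HFD+veh by 1.02 (adjusted p = 0.0161). Of the 7 tested activin and inhibin genes and their binders, 0 were called higher and 2 lower in HFD+veh against ND+veh, 1 and 4 in HFD+eRapa against HFD+veh, and 0 and 3 in HFD+eRapa against ND+veh (medians 0.07, -1.02 and -0.81). Fstl1, an extracellular binder, fell in HFD+eRapa against HFD+veh (-2.86, adjusted p = 0.00230), as did 9 of 10 stellate cell markers, whose part in it was not tested.

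Other proteins secreted by the liver showed no shared direction. Of 27 tested, 5 were called higher and 5 lower, 6 and 6, and 4 and 4 in the 3 comparisons in the order above (medians 0.10, 0.05 and -0.01), and 2 higher and 4 lower in the first without HFD+veh replicate 6. Lect2, a hepatokine linked to insulin resistance of muscle, went the way of Fetub, from 103 CPM in ND+veh to 47.8 in HFD+veh (-1.11, edgeR adjusted p = 0.00567) and 98.3 in HFD+eRapa (1.04 against HFD+veh, adjusted p = 0.00487). Fgl1 had 191, 294 and 494 CPM in ND+veh, HFD+veh and HFD+eRapa and rose in HFD+eRapa against ND+veh (1.37, adjusted p = 0.000197), with a value of 0.62 in HFD+veh against ND+veh (adjusted p = 0.0526). Gpnmb and Lcn2 rose in HFD+veh (4.52, adjusted p = 0.00438, and 3.15, adjusted p = 0.000649), where 4 macrophage and 3 neutrophil markers were also called higher. Lcn2 was also called higher in HFD+eRapa against ND+veh, with 48.4 against 6.93 CPM (2.79, adjusted p = 0.000976), whereas Gpnmb was at -0.41 there (adjusted p = 0.840). In that comparison edgeR called 0 of 12 macrophage markers (median -0.44) and 0 of 5 neutrophil markers (median 1.41). With DESeq2, 1 of the 5 neutrophil markers was called higher. The part of these cells in Lcn2 and Gpnmb was not tested. Of 5 cystatin superfamily genes beside the fetuins, only Cstb was called in any comparison, at 0.98 in HFD+veh (adjusted p = 0.0122) and -0.77 in HFD+eRapa against HFD+veh (adjusted p = 0.0266). Of 7 small leucine-rich proteoglycans beside Tsku, 1, 4 and 3 were called lower and 0 higher in the 3 comparisons, and of 5 other angiopoietin-like and angiopoietin genes 2 were called higher and 1 lower, 1 and 3, and 0 and 1.

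**Figure D5:**
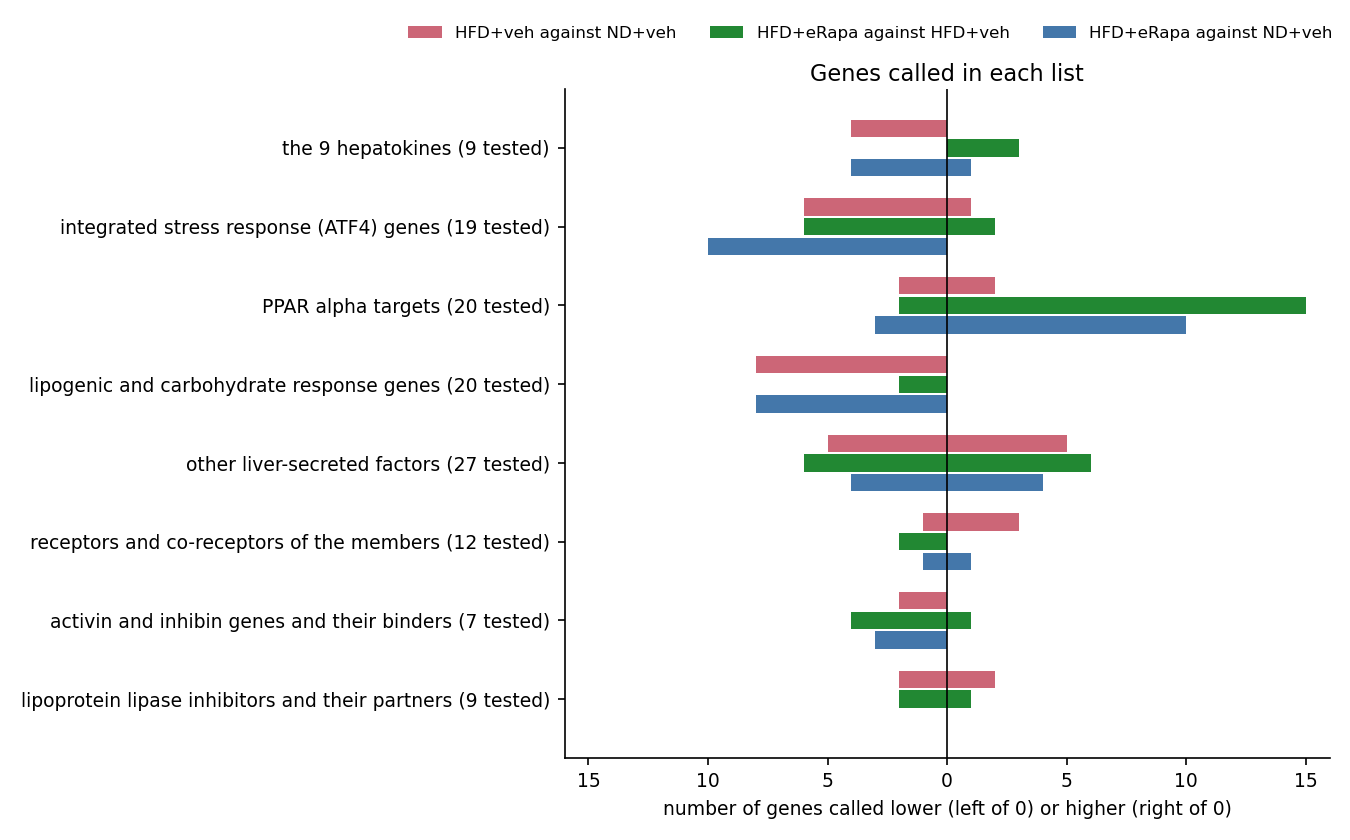
Number of genes that edgeR called higher (right of 0) or lower (left of 0) among the 9 hepatokines and in 7 lists of related genes, for 3 comparisons coloured as in the key, with the number tested beside each list (ND+veh n = 8, HFD+veh n = 7, HFD+eRapa n = 9). PPAR alpha targets reach 15 higher in HFD+eRapa against HFD+veh, and the stress response and lipogenic lists lie mostly left of 0 against ND+veh.

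The genes most like each member over the 24 libraries were named by the highest Pearson r of log2 CPM, which holds the differences between groups and anything the libraries share, such as the amount of RNA from other cells. For Fgf21 they were Mif, Cdc42ep5 and Cyp3a11 (r = 0.804, 0.796 and 0.792), and for Gdf15 Ppp1r15a, Tnfrsf12a and Reep4 (0.858, 0.838 and 0.818), of which Ppp1r15a encodes the phosphatase subunit that ends the integrated stress response. Inhbe went with Optn, Grik5 and Mmp15 (0.931, 0.928 and 0.912). Ahsg went with Asgr2, Proc and Habp2 (0.949, 0.936 and 0.929), a receptor subunit and plasma protease genes of hepatocytes, and Fetub with Grsf1 and Inhbc, among others (0.945 and 0.940). For Angptl8 they were Chst13, Stk36 and Ier2 (0.857, 0.841 and 0.835), for Enho Dnpep, Eif2b4 and Cyp2d10 (0.871, 0.863 and 0.844), and for Tsku Cdk11b, Cep85 and Ccdc134 (0.789, 0.775 and 0.756). Among the members themselves, Ahsg and Fetub were the most alike pair (r = 0.869), and after group means were removed r was 0.883.

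Within groups, 15 relations of member pairs or of Angptl8 with Fasn were tested on log2 CPM. In HFD+veh (n = 7), Ahsg and Fetub had a Pearson r of 0.948 (two-sided exact permutation p = 0.00278, adjusted over 15 relations 0.0402) and a Spearman rho of 0.929 (exact permutation p = 0.00675, adjusted 0.101), and without the 2 animals farthest from the median of Ahsg r was 0.890 (exact permutation p = 0.0833). Fgf21 and Gdf15 in HFD+veh (n = 7) had an r of 0.903 (exact permutation p = 0.00536, adjusted 0.0402) and a rho of 0.857 (exact permutation p = 0.0238, adjusted 0.179). Without the 2 animals farthest from the median of Fgf21 that r was 0.496 (exact permutation p = 0.458). Leaving them out narrows the range of Fgf21 and leaves few animals, so this fit cannot decide whether the relation rests on them. The same pairs had an r of 0.687 and 0.385 in ND+veh (n = 8; exact permutation p adjusted 0.188 and 0.439) and of 0.737 and 0.501 in HFD+eRapa (n = 9; exact permutation p adjusted 0.112 and 0.316). Of the 15 relations, the other 13 did not pass, among them all 3 of Fgf21 with Inhbe. Over the removal of each HFD+veh animal in turn, r was at least 0.909 for Ahsg with Fetub and at least 0.779 for Fgf21 with Gdf15.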

How the data were processed

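The authors aligned reads with STAR to mm10 (Gencode M23), filtered alignments with SAMtools 1.1.0 and counted reads per gene with HTSeq 0.11.2. The deposited counts are raw whole numbers. The deposited FPKM values were computed by the authors with Cufflinks. Both tables hold 1 column per library. Gene models were read from Gencode M21 (GRCm38, the assembly of mm10) and start-site windows from RefSeq (GRCm38.p6).

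Counts were tested with edgeR 4.0.16 in R 4.3.3: filterByExpr, TMM scaling, glmQLFit (robust) and glmQLFTest in 1 fit of all 24 libraries, with Benjamini-Hochberg adjustment over 13847 genes. Genes with adjusted p under 0.05 are termed called. SE is the absolute log2 fold change over the square root of F, and log2 CPM used a prior count of 2. The immune marker score is the mean z-score of the macrophage, lymphocyte and neutrophil markers. Replicates are separate animals; pairs of libraries within a group differed by a chi-square of at least 12.9 per degree of freedom, so none was a repeat deposit. The fits were tested on simulated data. All 9 members were named, with the 3 genes most like each and, per list and comparison, at most the 2 largest rises and 2 largest falls among called genes (some of these are not reported here); Ppara, Acvr1c and Gfral were named by their role, after their values were seen. The members and lists were chosen with earlier results of these data known. Alternatives were DESeq2 1.42.0, limma 3.58.1 (voom, and log2(FPKM + 0.1, 1 or 0.01)), other scalings and filters, fits of 2 groups, the replicate block, the immune marker score as a covariate and the removal of each library.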

Additional observations from a re-analysis of the deposited data

Results flagged for a closer look

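The total count of HFD+veh replicate 3, 19.85 M, lay further below the other 6 libraries of its group (21.26 to 22.03 M) than the 95% critical value of Dixon's test for the smallest value allows (gap over range 0.647, critical value 0.568). Of 33 groups of values tested, this 1 passed, where chance gives about 1.65. CPM are scaled by the total times the TMM factor, and in this library Fetub was at 130, Enho at 2.36 and Ahsg at 2909 CPM, within the range of the group.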

How the results depend on the processing

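Of 810 values of members under alternatives, 739 stayed on their side of the threshold, and 60 lost and 6 gained a call. The other 5, uncalled, changed sign and moved by at least the SE of the main log2 fold change. In all, 19 values changed sign, those 5 and 14 that moved by less than that SE. Of the 19, 0 were called in either fit. For HFD+veh against ND+veh (4 members called) the fit of only the 2 groups called 2, and fits without 1 library called 3 to 5. For HFD+eRapa against HFD+veh (3 called) the replicate block called 0, the immune marker score as a covariate 1, and fits without 1 library 3 to 4. For HFD+eRapa against ND+veh (5 called) 3 were called without a low-count filter, 3 with limma on log2(FPKM + 0.1), 3 with a pseudocount of 1, 3 with 0.01, 2 without the FPKM filter, 2 with the replicate block, and 3 when libraries were scaled to hepatocyte markers, a setting chosen after seeing the data. Fits without 1 library called 3 to 5. The cause was not tested. Leaving out ND+veh replicate 4 and HFD+veh replicate 6 together, also chosen after seeing the data, called 3, 3 and 4. Scaling to hepatocyte markers moved the median of all genes to 0.0049, 0.25 and 0.20 on the log2 scale and the higher calls from 1507 of 4432 to 2588 of 4221 and from 959 of 1865 to 1088 of 1326 for HFD+eRapa against HFD+veh and against ND+veh, and log2(FPKM + 0.1) moved it to 0.06, -0.14 and -0.12, so member values should be read against these shifts. Over all genes, edgeR called 3584, 4432 and 1865, and counts outside 1.5 times these were, for the first, 1194 with the immune marker score, 2333 with 2 groups alone, 1220 scaled to hepatocyte markers, 2300 without the pair of libraries, 2106 without HFD+veh replicate 6, and 2207, 1906 and 1509 with FPKM + 0.1, + 0.01 and no FPKM filter. For the second they were 986 with the immune marker score, 305 with the replicate block, 2809 with at least 10 counts in every library and 2737 without the FPKM filter, and for the third 1167 without the FPKM filter.

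The labels use the same replicate numbers in every group, for different animals. Same-numbered libraries correlated, after removal of group means, at 0.316 (5 of 7 pairs over 0.1), -0.245 (2 of 7) and -0.203 (2 of 8), and 3, 0 and 0 libraries were most like their own number, and since in no comparison every pair was over 0.1, the numbers were not taken to pair animals. Each fit with the replicate block held only the 2 groups compared and the replicate numbers found in both (7, 7 and 8 pairs). Other animals were left out of it. With the replicate block 3, 0 and 2 members were called in the 3 comparisons, and the PPAR alpha targets called between HFD+eRapa and HFD+veh were 3 higher and 0 lower. For that comparison the block gave log2 fold changes of 1.06 for Inhbe, 1.01 for Fetub and 1.62 for Enho, against 1.08, 0.89 and 1.41 in the main fit. Fgf21, Enho and Angptl6 were at single-digit CPM in many animals, with lowest counts in a library of 67, 33 and 40. The part of depth in their values was not tested.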
